A study of Danio rerio with 9 samples.

Results

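The Hox genes of zebrafish were followed in dissected tailbuds after forced expression of *tbx16* or *msgn1*. Members were the lines of the count table named *hox*, a cluster letter from a to d, a paralogue number and a copy letter a or b. The rule gave 48 genes among 31956 named lines, no name was repeated, and all 48 names were found in the RefSeq table of zebrafish genes. They were read in 4 classes by paralogue number: 13 genes of groups 1 to 4, 12 of groups 5 to 8, 9 of groups 9 to 10 and 14 of groups 11 to 13. A filter on low counts kept 46 of the 48 among 19914 genes tested. The exceptions were *hoxa1a*, with 0 to 14 counts per sample, and *hoxc13b*, with 0 to 12, which are not discussed further.

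Hox genes encode homeodomain transcription factors that set position along the head to tail axis. They lie in clusters in paralogue order, and genes with low numbers are switched on earlier and more anteriorly than genes with high numbers. In the tailbud, progenitors of the spinal cord and of the paraxial mesoderm switch on higher-numbered groups as the body elongates, and in zebrafish the group 13 genes are needed in the tailbud for mesoderm formation and axis elongation.

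Bulk RNA sequencing covered 9 samples, 3 of each genotype: wild type, embryos with the heat-inducible transgene labelled *hsp70::tbx16* (the *tbx16* line) and embryos with *hsp70::msgn1* (the *msgn1* line). The study asked which genes respond soon after either transcription factor is forced on in the embryo. Every sample pooled the tailbuds of 10 embryos that were heat-shocked for 30 min at the 2 to 3 somite stage, wild type included, and left to recover for 3 h. The labels give the heat shock as 28 °C, and the study's methods give a higher temperature. The promoter, of the gene *hsp70l*, is driven by heat in all tissues, so the transgenes were not limited to the tailbud or to mesoderm. The *tbx16* embryos came from a homozygous parent crossed to wild type. The *msgn1* embryos came from a heterozygous parent and were sorted by genotype, and non-transgenic embryos were pooled as the wild-type controls, so for the *tbx16* line genotype and parentage cannot be told apart. The study calls the 3 samples of a genotype biological replicates. No source says whether they came from separate clutches, and each p-value weighs a difference against the spread between samples.

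Counts summed to between 30750552 and 49654769 per sample, and levels are given as CPM, the counts of a gene relative to the total of its library, with totals scaled by the trimmed mean of M-values (TMM). Reads of a transgene and of the gene itself were not separated. *tbx16* was 2.22-fold higher in the *tbx16* line (adjusted p = 0.00149) and *msgn1* was 2.28-fold higher in the *msgn1* line (adjusted p = 0.0262, edgeR quasi-likelihood test), a call lost in 6 of 9 fits that each left out 1 sample (adjusted p up to 0.147). All 6 markers listed for tailbud mesodermal progenitors were detected, with a summed level of 2401 to 2746 CPM in wild type. Replicate 2 of the *msgn1* line stood apart from its group: it was the highest of the 3 *msgn1* samples in 40 of 46 Hox genes, and its *msgn1* level was 1428 CPM against 1909 and 1958 in replicates 1 and 3. The Hox calls, the class shares and several other genes named in the *msgn1* line are therefore also given without it. The *msgn1* gene itself then had a log2 fold change of 1.32 (adjusted p = 0.0152, edgeR). Because the sample was picked out partly by its Hox levels, leaving it out lowers the mean of the line wherever that sample is highest. Hox calls made without it are therefore not independent evidence. Wild-type replicate 3 was likewise the highest of its group in 41 of 46 Hox genes, and the *msgn1* comparison without that sample is also given.

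Hox genes of all 4 classes were lower in the *tbx16* line. Of 46 genes tested, 37 fell and 0 rose at an adjusted p under 0.05, where 15.7% of all genes fell and 15.0% rose. At an unadjusted p under 0.05 and with DESeq2, another count test, 1 Hox gene was higher, *hoxc13a*, against 21.2% and 17.2% of all genes. All 37 fell by at least 1.5-fold, as 12.0% of all genes did. In 9 fits that each left out 1 sample, 29 of the 37 passed every time, and the 8 that did not are named with their values. In 41 genes every sample of the *tbx16* line was below every wild-type sample, which held for 25.1% of all genes. The median log2 fold change was -1.18 over the Hox genes and 0.03 over all genes. The level summed over all Hox genes was 3059 ± 228 CPM (SD, n = 3) in wild type and 1419 ± 323 in the *tbx16* line. In pooled tissue, fewer cells that express a gene and less RNA per cell cannot be told apart.

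**Figure D1:**
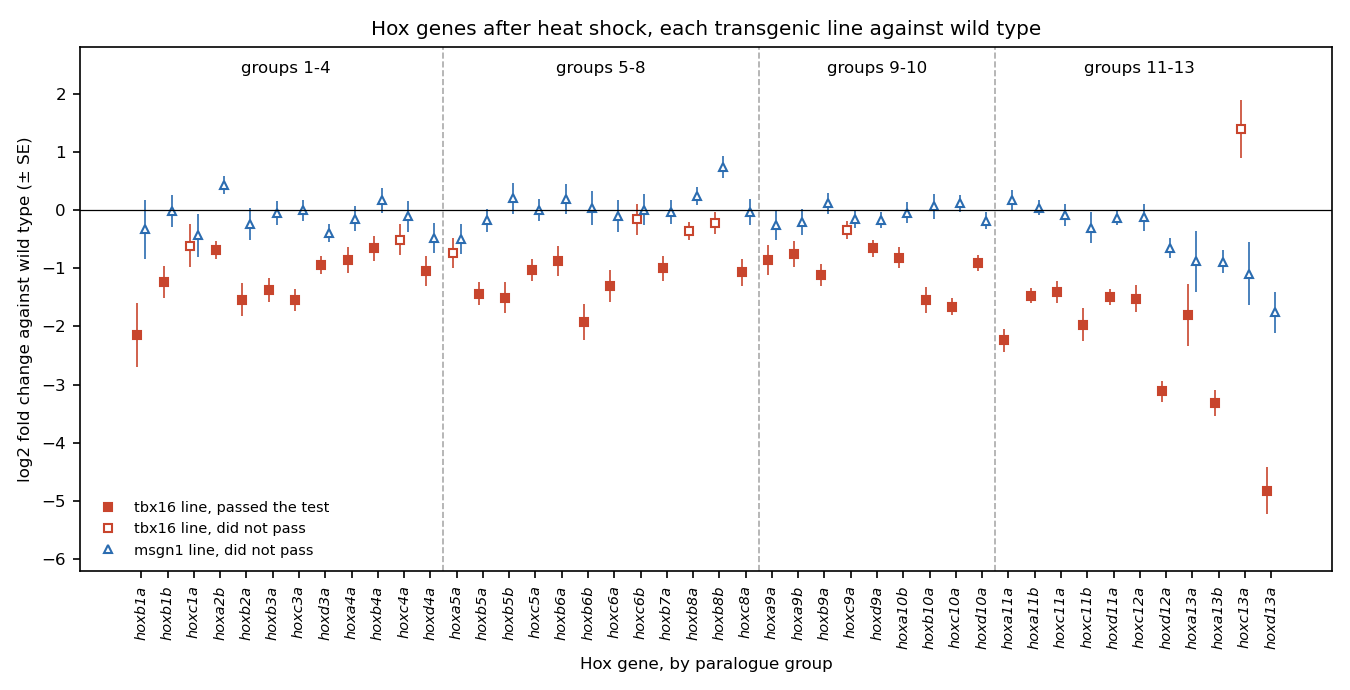
Log2 fold change against wild type (y axis, ± SE) of 44 Hox genes ordered by paralogue group (x axis), for the *tbx16* line (squares) and the *msgn1* line (triangles), with filled symbols for an adjusted p under 0.05. *hoxc12b* and *hoxb13a*, with 0 counts in some samples, are left out. In the *tbx16* line 43 of the 44 lie below 0, with *hoxd13a* lowest at -4.82, and no gene of the *msgn1* line passed the test.

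Levels of markers of other tissues also differed in the *tbx16* line, in which 15.7% of all genes fell and 15.0% rose. Of 9 neural markers 6 fell and 0 rose, of which *nkx6.1* and *neurog1* were lost in 5 and 4 of the 9 fits, and their summed level was 633 to 649 CPM in wild type and 253 to 347 in the *tbx16* line. Of 6 markers of tailbud mesodermal progenitors 5 fell and *tbx16* itself rose, with a summed level of 1487 to 1768 CPM in the *tbx16* line. That sum includes *tbx16*, transgene reads among them, at 836, 976 and 564 CPM in the *tbx16* line and 332, 364 and 372 in wild type. It therefore understates the fall of the other 5. Among the 5, the call of *msgn1* was lost in 3 of the 9 fits. Of 5 markers of intermediate and lateral mesoderm 3 fell, from 128 to 143 CPM in sum to 33.4 to 62.1. Of 6 blood and vessel markers 2 rose, *etv2* and *tal1*, and 2 fell, *fli1a* and *kdrl*, and their sum was 317 to 365 CPM in wild type and 462 to 768 in the *tbx16* line. Of 6 epidermal markers 3 fell and 0 rose, *tp63*, *cldni* and *epcam*, the last a call lost in 7 of the 9 fits. The epidermal sum ran from 2812 to 9426 CPM within wild type and from 2970 to 9832 in the other samples. Of 3 hindbrain markers 2 fell, *hnf1ba* and *egr2b*, and 1 rose, *mafba*. Their sum was 56 to 65.7 CPM in wild type and 83.5 to 100 in the *tbx16* line. The higher sum came from *mafba*, with means of 9.62 CPM in wild type and 81.1 in the *tbx16* line. The means of *hnf1ba* were 49.1 and 11.4, and those of *egr2b* 1.59 and 0.04. Of 3 tested yolk syncytial layer genes 2 fell, *apoa2* and *apobb.1*, calls lost in 3 and 2 of the 9 fits. The sum of that list was 479.9 to 547 CPM in wild type and 13.1 to 195 in the *tbx16* line. There *apobb.1* read 135, 9.34 and 18.9 CPM in replicates 1 to 3. Of 5 notochord markers 2 fell, *noto* and *shha*, and 1 rose, *col9a1a*, a call lost in 4 of the 9 fits. Of 7 somite and muscle markers 1 fell, *mespaa*, and 2 rose, *mespba* and *foxc1a*. Of 3 tested endoderm markers 1 fell, *foxa1*, a call lost in 5 of the 9 fits. Of 6 head and forebrain markers 1 fell, *emx3*. The part of these tissues in the Hox result was not tested.

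In groups 1 to 4, the anterior genes, 10 of 12 fell in the *tbx16* line, with a median log2 fold change of -1.0. *hoxb1a*, which gives zebrafish rhombomere 4 its identity, read 1.98, 0.964 and 3.87 CPM in wild type, 0.768, 0.268 and 0.511 in the *tbx16* line and 1.45, 2.4 and 1.55 in the *msgn1* line. Its sister *hoxb1b*, expressed early in the hindbrain and trunk, read 108, 100.2 and 124 CPM in wild type, 32.7, 43.6 and 64.5 in the *tbx16* line and 88.3, 157 and 82.7 in the *msgn1* line. Both fell, with no overlap between the *tbx16* line and wild type and with log2 fold changes of -2.15 (SE 0.54, adjusted p = 0.0138) and -1.24 (SE 0.28, adjusted p = 0.00826). The call of *hoxb1a* was lost without wild-type replicate 3 (adjusted p = 0.0551) or *tbx16* replicate 2 (adjusted p = 0.0548). *hoxc1a* read 7.61, 5.49 and 13.4 CPM in wild type, 3.62, 4.91 and 8.82 in the *tbx16* line and 5.64, 7.76 and 6.17 in the *msgn1* line, and these ranges overlapped (log2 fold change -0.61, adjusted p = 0.242).

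The group 2 genes pattern the hindbrain and the second pharyngeal arch. *hoxa2b* read 23.3, 28.1 and 29 CPM in wild type, 13, 17.6 and 19.2 in the *tbx16* line and 37, 35.8 and 35.5 in the *msgn1* line, so the 3 groups did not overlap and the *msgn1* line was highest. *hoxb2a* read 10.4, 8.94 and 12.8 CPM in wild type, 2.76, 3.23 and 5.02 in the *tbx16* line and 7.5, 12.2 and 7.35 in the *msgn1* line. Both fell in the *tbx16* line, with log2 fold changes of -0.69 (SE 0.15, adjusted p = 0.00737) for *hoxa2b* and -1.54 (SE 0.28, adjusted p = 0.00267) for *hoxb2a*.

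The group 3 genes in the table were *hoxb3a*, *hoxc3a* and *hoxd3a*, of a group that patterns the posterior hindbrain. *hoxc3a* held more counts than any other Hox gene and read 351, 345 and 378 CPM in wild type, 94.8, 116 and 157 in the *tbx16* line and 327, 430.0 and 314 in the *msgn1* line. *hoxb3a* read 215, 206 and 219.6 CPM in wild type, 65.7, 71.9 and 109.7 in the *tbx16* line and 175, 261 and 182 in the *msgn1* line. *hoxd3a* read 106, 111 and 129.8 CPM in wild type, 51.4, 55.5 and 73.3 in the *tbx16* line and 80.5, 102 and 80.5 in the *msgn1* line. In each of these genes all 3 *tbx16* samples were under all wild-type samples, and the log2 fold changes were -1.54 (SE 0.19, adjusted p = 0.000261), -1.37 (SE 0.21, adjusted p = 0.000918) and -0.94 (SE 0.16, adjusted p = 0.00166). In the RefSeq table, of another assembly than the counts, the span of *hoxc3a* encloses 5 other Hox genes, that of *hoxb3a* 3, that of *hoxb1b* 2 and that of *hoxd3a* 1, so the split of reads among these genes is uncertain.

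Group 4 genes act at the border of hindbrain and spinal cord. *hoxa4a* read 48.7, 44.7 and 61.3 CPM in wild type, 21.9, 26.4 and 36.5 in the *tbx16* line and 41.6, 59.8 and 38.2 in the *msgn1* line. *hoxb4a* read 11.1, 9.11 and 12.4 CPM in wild type, 5.44, 6.52 and 8.66 in the *tbx16* line and 9.92, 13.8 and 12.8 in the *msgn1* line. *hoxd4a* read 55.6, 48.7 and 62.5 CPM in wild type, 22.3, 26.7 and 31.2 in the *tbx16* line and 27, 58.9 and 33.6 in the *msgn1* line. These 3 fell in the *tbx16* line, and in each the wild-type samples were above all *tbx16* samples. Their log2 fold changes were -0.87 (SE 0.22, adjusted p = 0.0147), -0.66 (SE 0.21, adjusted p = 0.0375) and -1.05 (SE 0.26, adjusted p = 0.0115). The call of *hoxb4a* was lost without wild-type replicate 1 or 3 or *tbx16* replicate 1 or 2 (adjusted p = 0.0974, 0.114, 0.118 and 0.109). That of *hoxa4a* was lost without wild-type replicate 3 or *tbx16* replicate 1 or 2 (adjusted p = 0.0505, 0.0532 and 0.0582). *hoxc4a* read 11.4, 11.1 and 12.2 CPM in wild type, 6.84, 6.27 and 11.3 in the *tbx16* line and 7.46, 13.9 and 10.7 in the *msgn1* line, with overlap between the groups (log2 fold change -0.51, adjusted p = 0.172).

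In groups 5 to 8, which in mouse pattern the neck and thoracic trunk, 8 of 12 fell in the *tbx16* line, with a median log2 fold change of -1.02. Both copies of *hoxb5*, whose clusters are needed to place the pectoral fins in zebrafish, fell. *hoxb5a* read 16.7, 16.6 and 20.9 CPM in wild type, 5.0, 6.5 and 8.48 in the *tbx16* line and 15, 17.7 and 15 in the *msgn1* line. *hoxb5b* read 7.64, 6.66 and 9.38 CPM in wild type, 1.91, 2.41 and 4.02 in the *tbx16* line and 9.23, 9.75 and 8.2 in the *msgn1* line. *hoxc5a* read 6.54, 6.69 and 7.36 CPM in wild type, 2.92, 3.36 and 3.8 in the *tbx16* line and 5.52, 7.35 and 7.66 in the *msgn1* line. The 3 genes fell in the *tbx16* line, whose samples were all below wild type, with log2 fold changes of -1.44 (SE 0.20, adjusted p = 0.000574), -1.51 (SE 0.27, adjusted p = 0.00237) and -1.03 (SE 0.19, adjusted p = 0.00297). *hoxa5a* read 9.39, 9.14 and 15.1 CPM in wild type, 6.1, 6.06 and 7.93 in the *tbx16* line and 6.13, 10.5 and 7.29 in the *msgn1* line, and although its *tbx16* samples lay under wild type it did not pass (adjusted p = 0.0508).

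The group 6 genes, which in mouse promote ribs, gave the widest range in this class. *hoxb6b* read 9.14, 7.3 and 9.89 CPM in wild type, 1.54, 1.97 and 3.44 in the *tbx16* line and 7.5, 11.4 and 7.99 in the *msgn1* line, with the lowest log2 fold change of groups 5 to 8 in the *tbx16* line, -1.92 (SE 0.30, adjusted p = 0.0012). *hoxb6a* read 18.2, 17.3 and 22.9 CPM in wild type, 6.63, 10.4 and 14.7 in the *tbx16* line and 21.6, 26.3 and 18.9 in the *msgn1* line. *hoxc6a* read 26.2, 24.7 and 25 CPM in wild type, 7.33, 9.74 and 13.5 in the *tbx16* line and 18.6, 34.2 and 17.7 in the *msgn1* line. Both fell in the *tbx16* line, with log2 fold changes of -0.88 (SE 0.26, adjusted p = 0.0265) and -1.31 (SE 0.28, adjusted p = 0.00567). The call of *hoxb6a* was lost without wild-type replicate 1 or 3 or *tbx16* replicate 1 or 2 (adjusted p = 0.0564, 0.0831, 0.0621 and 0.0816). *hoxc6b* read 58.4, 66.7 and 95.2 CPM in wild type, 49.4, 70 and 77.2 in the *tbx16* line and 50.8, 99.8 and 70.5 in the *msgn1* line, with overlapping groups and a log2 fold change of -0.16 (SE 0.26).

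Of the remaining genes in this class, *hoxb7a* and *hoxc8a* fell. *hoxb7a* read 139, 149 and 163 CPM in wild type, 53.7, 76.7 and 94.6 in the *tbx16* line and 127, 186 and 127 in the *msgn1* line. *hoxc8a* read 117, 105 and 119 CPM in wild type, 40.4, 54.3 and 68 in the *tbx16* line and 83.3, 152 and 97.4 in the *msgn1* line. Their log2 fold changes in the *tbx16* line were -1.0 (SE 0.21, adjusted p = 0.00553) and -1.07 (SE 0.23, adjusted p = 0.00674). The copies of *hoxb8* did not pass in that comparison. *hoxb8a* read 20.9, 20.9 and 23.6 CPM in wild type, 14.3, 20 and 16.5 in the *tbx16* line and 23.2, 30.1 and 23.9 in the *msgn1* line. *hoxb8b* read 10.3, 9.17 and 9.94 CPM in wild type, 6.56, 7.54 and 11.1 in the *tbx16* line and 15.3, 16.6 and 17.2 in the *msgn1* line. Wild type and the *tbx16* line overlapped for *hoxb8b* and not for *hoxb8a* (adjusted p = 0.413 and 0.105), and the *msgn1* samples were above wild type for *hoxb8b*.

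Groups 9 and 10 pattern the posterior trunk, and group 10 suppresses ribs in the mouse lumbar region. Of these 9 genes 8 fell in the *tbx16* line, with a median log2 fold change of -0.86. *hoxa9a* read 173, 182 and 219.9 CPM in wild type, 67.8, 99.4 and 149 in the *tbx16* line and 141, 203 and 135 in the *msgn1* line. *hoxa9b* read 139, 146 and 166 CPM in wild type, 66.1, 93.1 and 107 in the *tbx16* line and 113, 177 and 99.8 in the *msgn1* line. *hoxb9a* read 259.7, 278 and 297 CPM in wild type, 91.5, 128 and 166 in the *tbx16* line and 272, 329 and 303 in the *msgn1* line. All 3 were below wild type in every *tbx16* sample, with log2 fold changes of -0.86 (SE 0.26, adjusted p = 0.0294), -0.76 (SE 0.22, adjusted p = 0.027) and -1.12 (SE 0.19, adjusted p = 0.00161), and replicate 3 of the *tbx16* line lay nearest to wild type. The calls of *hoxa9a* and *hoxa9b* were each lost in 5 of the 9 fits, without any 1 of the wild-type samples or *tbx16* replicate 1 or 2, with adjusted p of 0.0542 to 0.0959 for *hoxa9a* and 0.0534 to 0.0939 for *hoxa9b*. That of *hoxb9a* passed in all 9. *hoxd9a* read 135, 142 and 151 CPM in wild type, 69.6, 94.9 and 106 in the *tbx16* line and 124, 122 and 134 in the *msgn1* line, and fell in the *tbx16* line with a log2 fold change of -0.66 (SE 0.14, adjusted p = 0.00655). *hoxc9a* read 73.9, 74.1 and 91.3 CPM in wild type, 55.7, 71.5 and 61.1 in the *tbx16* line and 58.2, 86.2 and 70.7 in the *msgn1* line, and although its *tbx16* samples lay under wild type the gene did not pass (adjusted p = 0.127).

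In group 10 all 4 genes fell. *hoxc10a* read 58.5, 60.3 and 69.6 CPM in wild type, 15.9, 21.8 and 21.6 in the *tbx16* line and 62.2, 75.2 and 66 in the *msgn1* line. *hoxb10a* read 164, 177 and 180.1 CPM in wild type, 39.4, 57.7 and 80.6 in the *tbx16* line and 172, 209.9 and 163 in the *msgn1* line. These had the lower log2 fold changes in the *tbx16* line, -1.67 (SE 0.15, adjusted p = 3.87e-05) and -1.55 (SE 0.22, adjusted p = 0.000641), and their *msgn1* samples overlapped wild type. *hoxa10b* read 93.6, 95.6 and 103 CPM in wild type, 44.1, 61.3 and 60.3 in the *tbx16* line and 88.2, 119.9 and 75.2 in the *msgn1* line. *hoxd10a* read 56.8, 53.4 and 62.3 CPM in wild type, 25.5, 33.2 and 33 in the *tbx16* line and 47, 59.3 and 45.5 in the *msgn1* line. Their log2 fold changes in the *tbx16* line were -0.82 (SE 0.18, adjusted p = 0.00686) and -0.91 (SE 0.14, adjusted p = 0.0012).

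The posterior genes of groups 11 to 13 had the lowest median of the 4 classes in the *tbx16* line, a log2 fold change of -1.97, and 11 of 13 tested fell. The group 11 genes, which in mouse pattern the sacral region and the middle of the limb, all fell. *hoxa11a* read 25.1, 23.9 and 30.5 CPM in wild type, 4.41, 6.91 and 5.46 in the *tbx16* line and 24.8, 34.5 and 29.7 in the *msgn1* line. *hoxa11b* read 113, 132 and 121 CPM in wild type, 38.8, 51.1 and 41.9 in the *tbx16* line and 121, 138 and 117 in the *msgn1* line. *hoxd11a* read 56.4, 58.2 and 63.4 CPM in wild type, 19.4, 20.3 and 23.6 in the *tbx16* line and 52.2, 63.3 and 46.7 in the *msgn1* line. Every *tbx16* sample was under the lowest wild-type sample, and the log2 fold changes were -2.24 (SE 0.20, adjusted p = 4.05e-05), -1.47 (SE 0.13, adjusted p = 3.71e-05) and -1.49 (SE 0.14, adjusted p = 4.77e-05). *hoxc11a* read 45.5, 48 and 50.7 CPM in wild type, 17.6, 20.8 and 15.9 in the *tbx16* line and 39.5, 60.8 and 35.2 in the *msgn1* line. *hoxc11b* read 12, 15.7 and 17.5 CPM in wild type, 3.82, 4.77 and 2.89 in the *tbx16* line and 8.95, 17.3 and 10.3 in the *msgn1* line. Here too the *tbx16* line was lowest, with log2 fold changes of -1.41 (SE 0.20, adjusted p = 0.000574) and -1.97 (SE 0.28, adjusted p = 0.000706). Of the *msgn1* samples replicates 1 and 3 were below wild type and replicate 2 was not.

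Group 12 and 13 genes act in the tail and in the distal part of fins and limbs. *hoxd12a* read 71.1, 75.7 and 79.3 CPM in wild type, 8.67, 10 and 7.33 in the *tbx16* line and 47.7, 58.5 and 36.9 in the *msgn1* line. The 3 groups did not overlap, and the gene fell in the *tbx16* line with a log2 fold change of -3.12 (SE 0.18, adjusted p = 4.24e-06). That of *hoxc12a* was -1.52 (SE 0.24, adjusted p = 0.00115). *hoxc12b* was at the limit of detection, with 12, 9 and 23 counts in wild type, 5, 0 and 0 in the *tbx16* line and 6, 8 and 11 in the *msgn1* line. Its call (adjusted p = 0.0492) passed in 1 of the 9 fits, and in the others the adjusted p was 0.0648 to 0.149.

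*hoxd13a* showed the largest change of any Hox gene with counts in every sample. It read 9.16, 10.7 and 9.26 CPM in wild type, 0.285, 0.357 and 0.378 in the *tbx16* line and 2.62, 4.53 and 1.43 in the *msgn1* line. The 3 groups did not overlap, with the *tbx16* line lowest and the *msgn1* line between, and the gene fell in the *tbx16* line 28.3-fold (log2 fold change -4.82, SE 0.41, adjusted p = 3.27e-05). These *tbx16* values rest on 13, 20 and 17 counts. *hoxa13b*, with *hoxd13a* among the genes that shape the distal fin in zebrafish, read 13, 16.6 and 16.9 CPM in wild type, 1.23, 1.88 and 1.55 in the *tbx16* line and 7.14, 9.91 and 7.99 in the *msgn1* line, in the same order, with a log2 fold change of -3.31 (SE 0.22, adjusted p = 8.93e-06) in the *tbx16* line.

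The other group 13 genes were near the detection limit. *hoxa13a* read 0.821, 0.964 and 1.15 CPM in wild type, 0.241, 0.197 and 0.40 in the *tbx16* line and 0.605, 0.746 and 0.243 in the *msgn1* line, on 8 to 48 counts per sample, and fell in the *tbx16* line with a log2 fold change of -1.81 (SE 0.54, adjusted p = 0.0281). Its call was lost without any 1 of the wild-type samples or *tbx16* replicate 1 or 2 (adjusted p = 0.0589 to 0.101). *hoxb13a* had 11, 14 and 24 counts in wild type, 3, 0 and 0 in the *tbx16* line and 11, 0 and 13 in the *msgn1* line (adjusted p = 0.0507 for the *tbx16* line). *hoxc13a* read 0.433, 0.555 and 0.361 CPM in wild type, 0.79, 1.13 and 1.62 in the *tbx16* line and 0.161, 0.331 and 0.122 in the *msgn1* line. All *tbx16* samples were above, and all *msgn1* samples below, the wild-type samples, on 4 to 73 counts per sample. The gene did not pass against wild type in the *tbx16* line (log2 fold change 1.39, SE 0.50, adjusted p = 0.0575), and with DESeq2 it did (adjusted p = 0.0461).

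**Figure D2:**
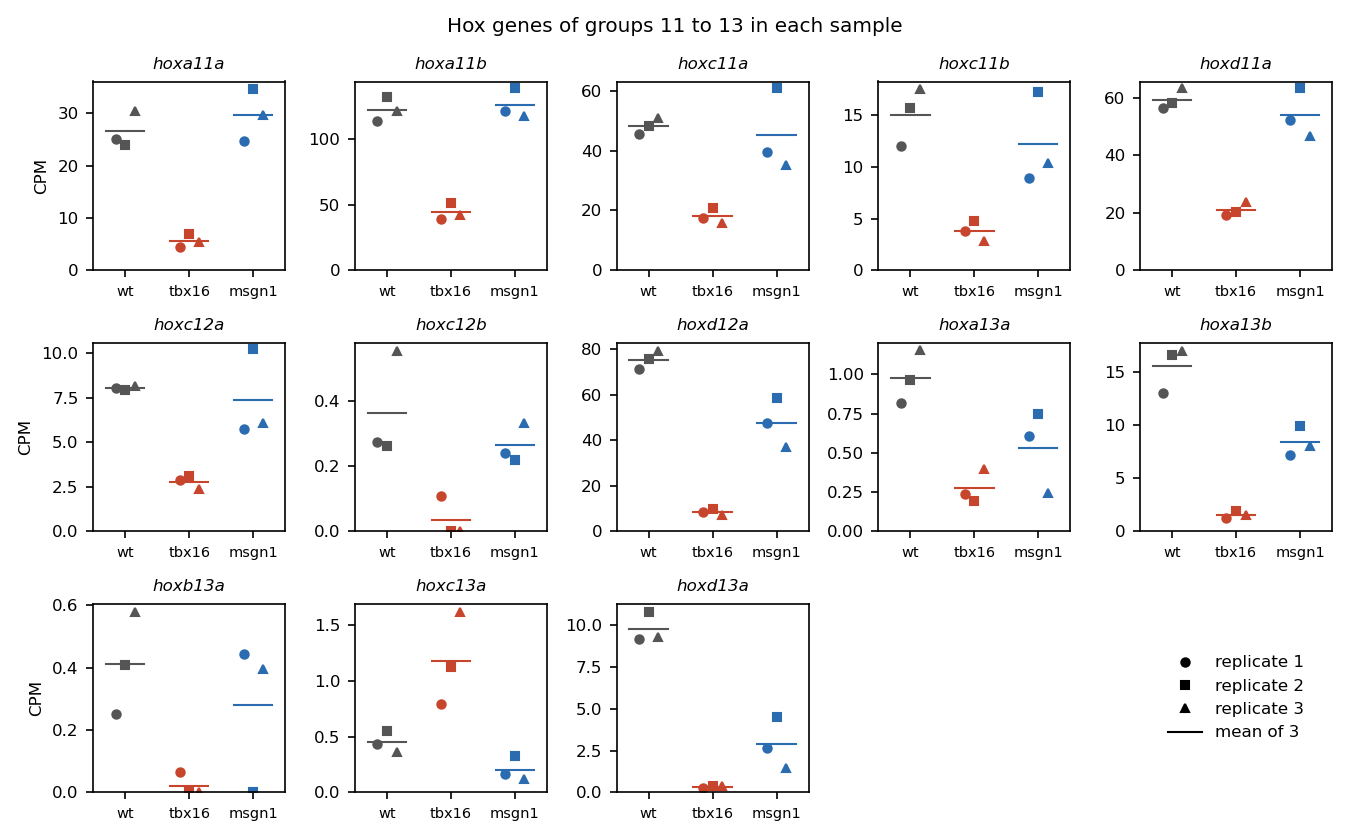
CPM (y axis, linear, from 0) of the 13 tested genes of groups 11 to 13 in each sample, by genotype (x axis: wt, wild type), with a marker per replicate and a bar at the mean of 3. The *tbx16* samples lie below wild type in 12 genes and above it in *hoxc13a*, and the *msgn1* samples lie between for *hoxd12a*, *hoxa13b* and *hoxd13a*.

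The size of the change went with position in some clusters and not in others. In the *hoxda* cluster the log2 fold change in the *tbx16* line ran from -0.66 for *hoxd9a* over -0.91, -1.49 and -3.12 to -4.82 for *hoxd13a*, while *hoxd3a* and *hoxd4a* at the other end were at -0.94 and -1.05. In the *hoxab* cluster it ran without exception from -0.69 for *hoxa2b* to -3.31 for *hoxa13b* (5 genes). In the *hoxba* cluster both ends fell more than the middle, with -2.15 for *hoxb1a*, -0.36 for *hoxb8a* and -1.55 for *hoxb10a*, though *hoxb5a* between them was at -1.44. Over all 46 genes paralogue number and log2 fold change had a Spearman rho of -0.37, a description across genes that share clusters and libraries.

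**Figure D3:**
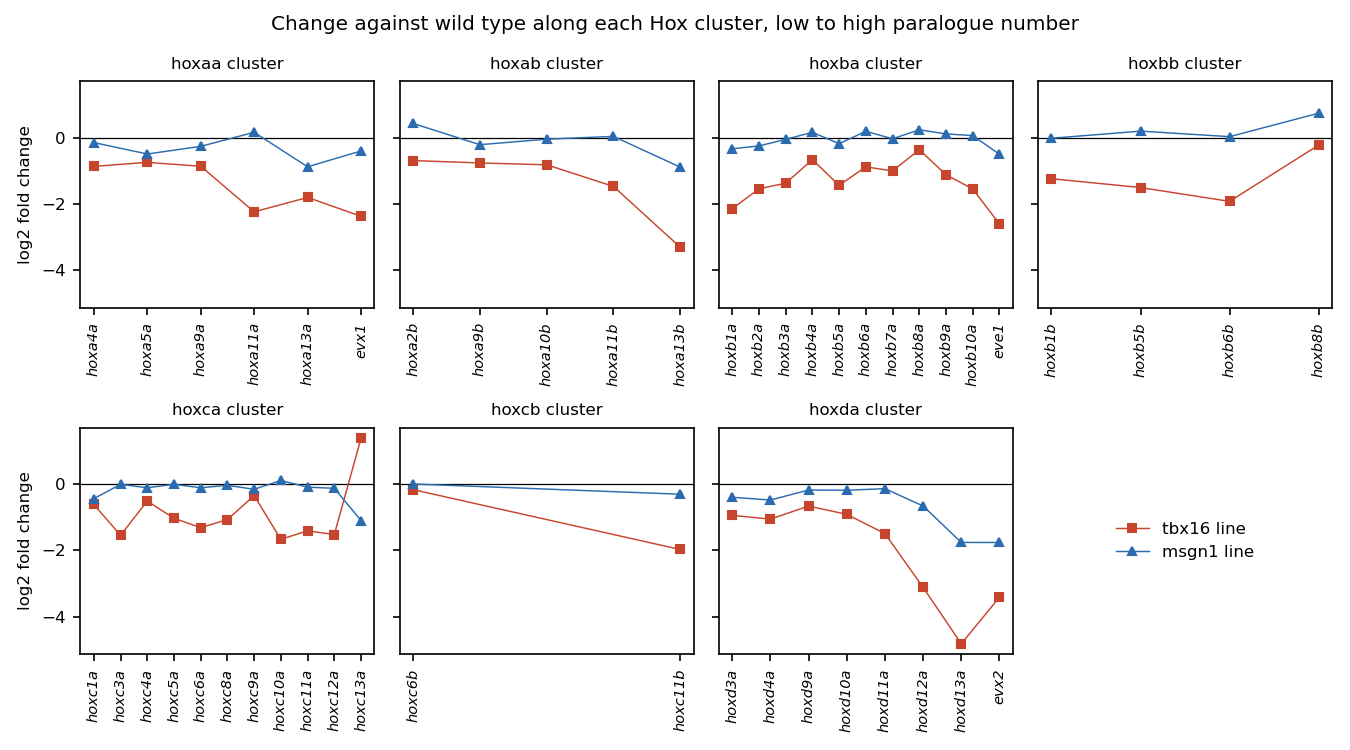
Log2 fold change against wild type (y axis) along each of 7 Hox clusters (x axis, low to high paralogue number, with the *even-skipped* gene beside it where there is one) for the *tbx16* line (squares) and the *msgn1* line (triangles). In the *tbx16* line the *hoxda* series steepens from -0.66 at *hoxd9a* to -4.82 at *hoxd13a*, and *hoxba* has its smallest change at *hoxb8a* (-0.36).

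The *even-skipped* genes lie beside the posterior ends of these clusters and encode homeodomain transcription factors expressed in the tailbud. All 3 fell in the *tbx16* line, as 15.7% of all genes did. *eve1*, beside *hoxb13a*, read 50.9, 60.2 and 59.4 CPM in wild type, 8.12, 7.86 and 12 in the *tbx16* line and 38.5, 41.2 and 40.7 in the *msgn1* line. *evx1*, beside *hoxa13a* and listed in the table on 2 lines of which the one with more counts was used, read 6.22, 5.05 and 5.92 CPM in wild type, 1.25, 1.14 and 0.911 in the *tbx16* line and 3.31, 6.41 and 3.28 in the *msgn1* line. *evx2*, beside *hoxd13a*, read 1.37, 1.81 and 1.71 CPM in wild type, 0.176, 0.161 and 0.111 in the *tbx16* line and 0.685, 0.608 and 0.152 in the *msgn1* line. The log2 fold changes in the *tbx16* line were -2.61 (SE 0.17, adjusted p = 7.97e-06), -2.38 (SE 0.30, adjusted p = 0.000346) and -3.42 (SE 0.57, adjusted p = 0.00156). None passed in the *msgn1* line, where they were -0.50, -0.40 and -1.76, and without *msgn1* replicate 2 -0.52, -0.80 and -1.99 (adjusted p = 0.137, 0.0767 and 0.0961).

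The make-up of the Hox counts shifted with genotype. Groups 11 to 13 held 12.5% ± 0.63 of all Hox counts in wild type, 7.80% ± 1.62 in the *tbx16* line and 11.5% ± 0.47 in the *msgn1* line (SD, n = 3). The highest *tbx16* sample was at 9.01% and the lowest wild-type sample at 12%. Groups 9 to 10 held 40.3% ± 0.53, 45.0% ± 1.31 and 40.9% ± 1.58, groups 5 to 8 15.2% ± 0.43, 18.5% ± 0.46 and 16.0% ± 1.08, and groups 1 to 4 31.9% ± 0.86, 28.8% ± 1.97 and 31.6% ± 0.92, in the same order. Without *msgn1* replicate 2 the *msgn1* shares were 31.1%, 15.5%, 41.8% and 11.6% from the lowest groups to the highest. Counts were not scaled for transcript length, so these shares compare samples and not classes. Wild type and the *tbx16* line did not overlap in any class, and an exact permutation test of 3 against 3 samples cannot go below p = 0.1.

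**Figure D4:**
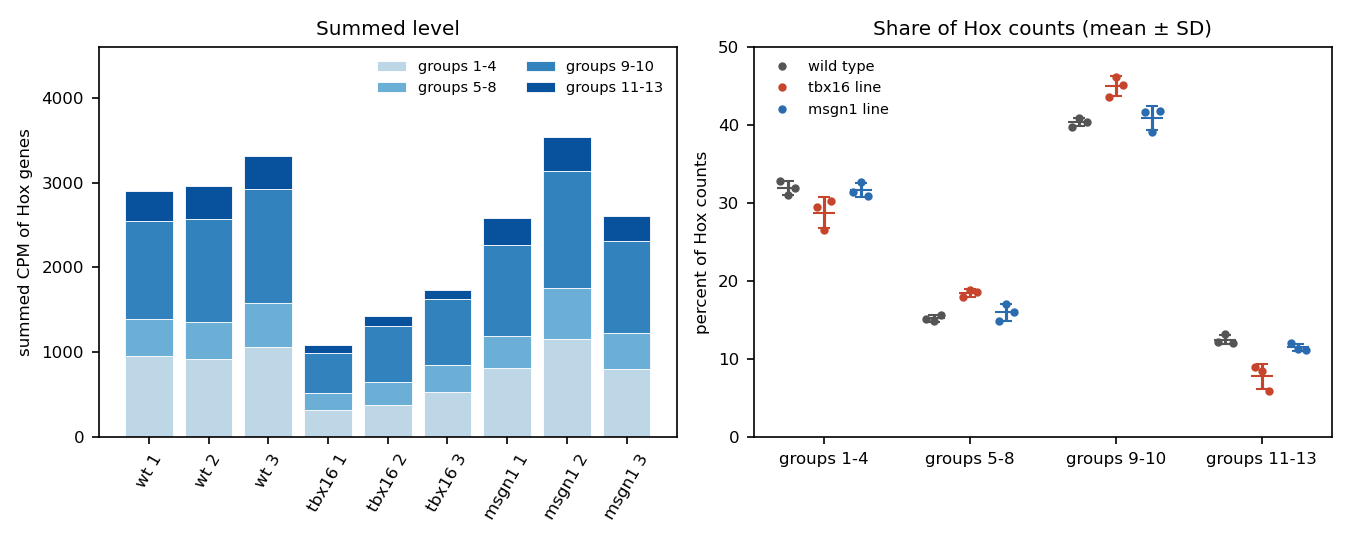
Left, summed CPM of the Hox genes in each sample (y axis), stacked by paralogue class. Right, the percent of Hox counts in each class (y axis), with a point per sample and the mean ± SD of 3 samples of each genotype. The summed levels of the *tbx16* line lie under all other samples, and its share of groups 11 to 13 lies under that of wild type.

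Sister copies of a gene, left by the genome duplication of teleost fishes, were compared within each sample. Of 10 pairs with both copies tested, the ratio of counts between the copies left the wild-type range in all 3 *tbx16* samples in 5 pairs. In the *msgn1* line it did so in 2 pairs, *hoxb5a* over *hoxb5b* and *hoxb8a* over *hoxb8b*, both below wild type. Of 19914 single genes, 4993 lay wholly below and 5530 wholly above wild type in the *tbx16* line. In the *msgn1* line 1948 and 1760 did. Ratios of other gene pairs were not computed, so the pair counts are not read as particular to sister copies. *hoxb5a*, *hoxb5b*, *hoxb6a*, *hoxb6b* and *hoxc6a* lie within the span of another Hox gene in the RefSeq table, so the split of their reads is uncertain. For *hoxc12a* over *hoxc12b* the ratio was undefined in *tbx16* replicates 2 and 3, where *hoxc12b* had 0 counts. For *hoxc6a* over *hoxc6b* it was 0.448, 0.37 and 0.263 in wild type and 0.148, 0.139 and 0.175 in the *tbx16* line, and for *hoxa11a* over *hoxa11b* 0.222, 0.182 and 0.251 and 0.114, 0.135 and 0.13. For *hoxb6a* over *hoxb6b* it was 1.99, 2.38 and 2.31 in wild type and higher, 4.31, 5.28 and 4.27, in the *tbx16* line. The ratios of *hoxc11a* and *hoxa13a* to their b copies were also above wild type, the latter on few counts. An exact permutation test of 3 against 3 ratios cannot go below p = 0.1.

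In the *msgn1* line no Hox gene passed the test. The log2 fold changes of group 13 genes were -1.76 for *hoxd13a* and -0.89 for *hoxa13b*. On few counts they were -0.88 for *hoxa13a*, -1.10 for *hoxc13a* and -0.58 (SE 1.15) for *hoxb13a*, the last with samples that overlapped wild type. With all samples 0 of 46 genes fell and 0 rose in the edgeR test, where 0.497% of all genes fell and 0.357% rose. At an unadjusted p under 0.05, 4 genes were lower and 2 higher, against 6.68% and 7.43% of all genes. The median log2 fold change was -0.12 over the Hox genes and -0.02 over all genes. In 7 genes every *msgn1* sample was below every wild-type sample, against 9.78% of all genes: *hoxd3a*, *hoxd9a*, *hoxd12a*, *hoxa13a*, *hoxa13b*, *hoxc13a* and *hoxd13a*.

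*hoxd13a* came closest to the threshold. Its wild-type samples of 9.16 to 10.7 CPM stood against 2.62, 4.53 and 1.43 in the *msgn1* line (log2 fold change -1.76, SE 0.35, adjusted p = 0.0507). *hoxa13b* had a log2 fold change of -0.89 (SE 0.20, adjusted p = 0.0842) and *hoxd12a* a log2 fold change of -0.66 (SE 0.17, adjusted p = 0.129). On the other side *hoxb8b* had a log2 fold change of 0.74 (SE 0.19, adjusted p = 0.13) and *hoxa2b* a log2 fold change of 0.43 (SE 0.15, adjusted p = 0.263), both without overlap. DESeq2 called 3 genes lower, *hoxd12a*, *hoxa13b* and *hoxd13a* (adjusted p = 0.013, 0.00273 and 0.000273), and 1 higher, *hoxb8b* (adjusted p = 0.0131), against 2.46% and 1.93% of all genes that it gave an adjusted p. Over 17 alternative settings the adjusted p of *hoxd13a* ran from 0.000273 to 0.178, that of *hoxa13b* from 0.00273 to 0.279, that of *hoxd12a* from 0.013 to 0.336 and that of *hoxb8b* from 0.0131 to 0.353. Of the 9 neural markers 3 fell in the *msgn1* line, where 0.497% of all genes fell. The call of 1 of them, *sox19a*, was lost in 6 of the 9 fits (adjusted p up to 0.173). The neural sum was 384 to 458 CPM and highest in replicate 2, and the number called was also 3 without that replicate. Of 6 epidermal markers 1 fell, *tp63*, a call lost in 3 of the 9 fits. Without *msgn1* replicate 2 its log2 fold change was -1.19 (edgeR adjusted p = 0.00866). The epidermal sum was 9832, 5486 and 2970 CPM in replicates 1 to 3. Of 5 notochord markers 1 fell, *noto*, and of 6 head and forebrain markers 1 fell, *emx3*, calls lost in 6 and 8 of the 9 fits. With all samples no marker in the other tissue lists passed, apart from *msgn1* itself. Without *msgn1* replicate 2, where 2.24% of all genes fell, *tbxta* and *mafba* were also called lower. Their log2 fold changes in that fit were -0.77 and -1.08 (edgeR adjusted p = 0.0431 and 0.0171). The part of these tissues in the Hox values was not tested.

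Without *msgn1* replicate 2 edgeR called 4 Hox genes lower, against 2.24% of all genes. That sample was picked out partly by its high Hox levels, so a fall on leaving it out was built in. *hoxd13a* was at -2.27 (SE 0.29, adjusted p = 0.0115), *hoxa13b* at -1.03 (SE 0.22, adjusted p = 0.0322), *hoxd12a* at -0.83 (SE 0.16, adjusted p = 0.0245) and *hoxd4a* at -0.88 (SE 0.18, adjusted p = 0.0287) on the log2 scale. The Hox median moved to -0.32 and the median of all genes to -0.06, while the genes called over the whole table rose from 99 to 459 lower and from 71 to 739 higher. In replicate 2 the median Hox gene was 0.22 above the wild-type mean on the log2 scale, and in replicates 1 and 3 it was at -0.31 and -0.25. For *hoxd4a*, replicate 2 read 58.9 CPM, within wild type, and the others 27 and 33.6. Wild-type replicate 3 was the highest of its 3 samples in 41 of 46 Hox genes. Without wild-type replicate 3, 0 Hox genes were called lower and 0 higher in the *msgn1* line, and the Hox median was -0.015. In the *tbx16* line replicate 1 was the lowest in 36 and replicate 3 the highest in 31, with summed Hox levels of 1091, 1429 and 1737 CPM in replicates 1 to 3.

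**Figure D5:**
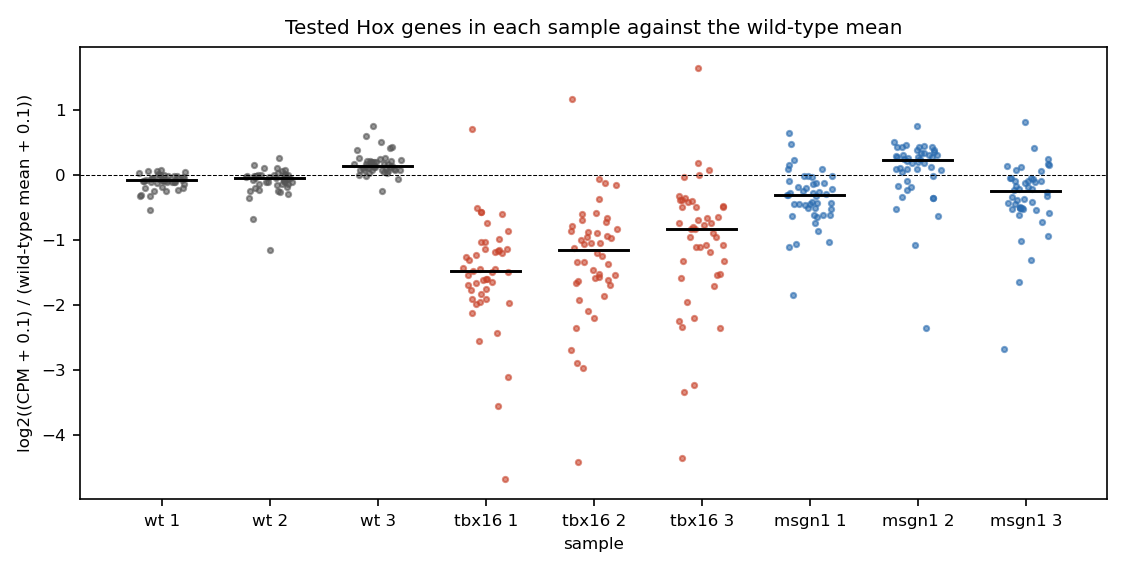
Log2 ratio of CPM to the wild-type mean (y axis, 0.1 CPM added to both) for the 46 tested Hox genes in each sample (x axis), with a point per gene and a line at the median. The *tbx16* medians run from -1.49 to -0.83, and *msgn1* replicate 2 has a median of 0.22 where the other *msgn1* samples are at -0.31 and -0.25.

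Both lines were compared with the same wild-type samples, so the 2 lines were also set against each other directly. The *tbx16* line was lower than the *msgn1* line in 34 of 46 Hox genes and higher in 1, where 19.8% of all genes were lower and 18.5% higher. The 1 gene was *hoxc13a*, with a log2 difference of 2.49 (SE 0.54, adjusted p = 0.00554). Of the 37 genes that fell in the *tbx16* line against wild type, 32 were also lower there than in the *msgn1* line. Among these 32, the calls of *hoxb1a*, *hoxd3a*, *hoxa4a* and *hoxd9a* between the lines were lost in some of the 9 fits (adjusted p up to 0.0982). The difference was -3.06 (SE 0.40) for *hoxd13a*, -2.42 (SE 0.22) for *hoxa13b* and -2.46 (SE 0.18) for *hoxd12a* on the log2 scale, with adjusted p-values of 0.000339, 4.36e-05 and 1.38e-05. The 5 that did not pass here were *hoxd4a*, *hoxa9a*, *hoxa9b*, *hoxc12b* and *hoxa13a*. *hoxb8a* and *hoxb8b*, which did not pass against wild type, were lower in the *tbx16* line than in the *msgn1* line with log2 differences of -0.60 (SE 0.16) and -0.96 (SE 0.19) and adjusted p-values of 0.0132 and 0.00371. Without *tbx16* replicate 1 the difference of *hoxb8a* did not pass (adjusted p = 0.0546).

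Genes known to regulate Hox expression differed too. Of 9 tested in a list of 10, 8 fell and 1 rose in the *tbx16* line, beside 15.7% and 15.0% of all genes. This list and the other gene lists were chosen with earlier results of these data known, so such counts are not independent evidence. *cdx4* and *cdx1a* encode caudal transcription factors that activate trunk Hox genes. *cdx4* read 829, 898 and 899.5 CPM in wild type, 289.8, 378 and 462 in the *tbx16* line and 863, 837 and 877 in the *msgn1* line, and *cdx1a* read 193, 161 and 98.8 CPM in wild type, 15.4, 16.1 and 26.6 in the *tbx16* line and 185, 183 and 95.2 in the *msgn1* line. They fell in the *tbx16* line with no overlap with wild type and with log2 fold changes of -1.22 (SE 0.16, adjusted p = 0.00037) and -2.96 (SE 0.34, adjusted p = 0.000189). *gdf11*, a signal that in mouse turns on posterior Hox genes at the trunk to tail transition, read 21.4, 23.9 and 27.3 CPM in wild type, 5.77, 10.9 and 7.86 in the *tbx16* line and 14.2, 12.7 and 14.9 in the *msgn1* line. It fell in the *tbx16* line, with a log2 fold change of -1.56 (SE 0.22, adjusted p = 0.00055), and did not pass in the *msgn1* line (log2 fold change -0.80, SE 0.21, adjusted p = 0.142, and without replicate 2 -0.73, adjusted p = 0.118), although no sample of either line reached wild type.

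Retinoic acid activates anterior Hox genes, and the genes of its synthesis, breakdown and reception did not all move together. *aldh1a2*, which makes it, read 72.1, 65 and 94.9 CPM in wild type, 123, 187 and 292 in the *tbx16* line and 93.3, 101 and 98.7 in the *msgn1* line, and rose in the *tbx16* line with a log2 fold change of 1.38 (SE 0.26, adjusted p = 0.00351). *cyp26a1*, which degrades it in the tailbud, read 145, 159.6 and 157 CPM in wild type, 104, 119 and 118 in the *tbx16* line and 109, 103 and 94.1 in the *msgn1* line. It fell in both lines, with log2 fold changes of -0.44 (SE 0.10, adjusted p = 0.00885) in the *tbx16* line and -0.59 (SE 0.10, adjusted p = 0.0271) in the *msgn1* line. The latter was -0.60 without *msgn1* replicate 2 (adjusted p = 0.022) and was lost in 6 of the 9 fits, without *msgn1* replicate 1 or 3, *tbx16* replicate 2 or any 1 of the wild-type samples (adjusted p = 0.0502 to 0.132). The 4 receptor genes *raraa*, *rarab*, *rarga* and *rargb* fell in the *tbx16* line, with log2 fold changes from -1.64 to -1.03.

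Hox proteins bind DNA with partners of the Pbx, Meis and Pknox families. Of 13 such genes tested 3 rose and 1 fell in the *tbx16* line, beside the 15.0% and 15.7% of all genes. *pbx1a* read 0.41, 0.409 and 0.289 CPM in wild type, 9.15, 7.13 and 4.31 in the *tbx16* line and 0.685, 0.663 and 0.122 in the *msgn1* line, and rose in the *tbx16* line with a log2 fold change of 4.21 (SE 0.52, adjusted p = 0.000318), on 12 to 18 counts in each wild-type sample. *pbx3b* read 1.25, 1.26 and 1.44 CPM in wild type, 4.52, 4.56 and 3.29 in the *tbx16* line and 0.403, 0.994 and 1.18 in the *msgn1* line, with a log2 fold change of 1.64 (SE 0.34, adjusted p = 0.00559) in the *tbx16* line. *meis1a* rose with overlapping samples (adjusted p = 0.0486) and passed in 1 of the 9 fits (adjusted p = 0.0573 to 0.171 in the others), and *meis2a*, listed on 2 lines, fell with a log2 fold change of -1.25 (SE 0.31, adjusted p = 0.0124). In the *msgn1* line 1 partner rose, *meis3*, which read 14.4, 13 and 20.7 CPM in wild type, 15.7, 17.2 and 15.7 in the *tbx16* line and 40, 37.5 and 58 in the *msgn1* line (log2 fold change 1.49, SE 0.21, adjusted p = 0.00987). It was at 1.61 without *msgn1* replicate 2 (adjusted p = 0.0136) and did not pass without wild-type replicate 1 or 2 (adjusted p = 0.08 and 0.054). In the fit without *msgn1* replicate 2, *meis1b* was also called higher (log2 fold change 0.58, edgeR adjusted p = 0.039), as were 739 of all 20480 genes tested there. Of 11 chromatin regulators of Hox clusters, 3 fell in the *tbx16* line, *ezh2*, *suz12a* and *bmi1a*, and 1 rose, *cbx2*, beside all-gene shares of 15.7% and 15.0%. The calls of *bmi1a* and *cbx2* were lost in 5 and 6 of the 9 fits. *ezh2*, the Polycomb methyltransferase, had a log2 fold change of -0.76 (SE 0.09, adjusted p = 0.000315).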

How the data were processed

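RNA of 9 pooled tailbud samples was sequenced. The authors trimmed reads with Trim Galore 0.5.0, aligned them to GRCz11 with HISAT2 2.1.0 and quantified genes with StringTie, and deposited a table of raw counts, whole numbers without scaling. The annotation, the strand setting and the step to whole numbers are not given in the sources used here. Lines with a blank name (64, at most 0.101% of counts) were left out. Counts were fitted over all 9 samples with edgeR 4.0.16 (R 4.3.3; TMM, filterByExpr, quasi-likelihood test), and p-values were adjusted by Benjamini-Hochberg over all 19914 genes, with a threshold of 0.05; DESeq2 1.42.0 was an alternative. SEs were taken as the fitted log2 fold change over the square root of its F statistic. The fit was tested on simulated data. The members and the gene lists were chosen with earlier results of these data known. Values in every sample were given for called Hox genes and tested posterior genes, for at most the 8 largest and 4 smallest changes of a class. No sequence was analysed here.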

Additional observations from a re-analysis of the deposited data

How the results depend on the processing

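The count of Hox genes lower in the *tbx16* line, 37, was 31 with library size as the only scaling and 36 to 39 under the other settings, apart from 35 with the replicate number as a block. No Hox gene called against wild type or between the lines changed direction when 1 sample was left out. Of those not called, 1 (*hoxc6b*) changed direction in some fit for the *tbx16* line and 2 between the lines, and 19 of 46 did so for the *msgn1* line. The 0 genes higher in the *tbx16* line became 1, *hoxc13a*, with library size alone, with DESeq2 and with only the 2 groups compared. For the *msgn1* line the 0 lower genes became 1, *hoxd13a*, with relative log expression (RLE) size factors, with no filter on low counts, with at least 10 counts in every sample and with repeated names summed, and 3 with DESeq2, which also called 1 gene higher. The 1 gene higher in the *tbx16* than in the *msgn1* line became 0 with at least 10 counts in every sample, which removes *hoxc13a*. Leaving out each sample in turn gave 29 to 38 lower and 0 to 1 higher for the *tbx16* line, 0 to 4 lower and 0 higher for the *msgn1* line, and 31 to 35 lower and 1 higher between the lines. Library size alone moved the median of all genes to 0.18 in the *tbx16* line, -0.20 in the *msgn1* line and 0.38 between them, and left the Hox medians -1.22, -0.07 and -1.23 away from these. Under it 2204 genes of the whole table were lower and 3757 higher in the *tbx16* line (3125 and 2995 with TMM), 147 and 44 in the *msgn1* line (99 and 71), and 1937 and 6335 between the lines (3943 and 3694), where 24 Hox genes were lower instead of 34. The cause of these shifts was not tested. Without *hoxc3a*, the gene with the most counts, groups 1 to 4, 5 to 8, 9 to 10 and 11 to 13 held 22.9%, 17.3%, 45.7% and 14.2% of Hox counts in wild type, 22%, 20.2%, 49.2% and 8.53% in the *tbx16* line and 22.1%, 18.2%, 46.6% and 13.1% in the *msgn1* line. Shares per kilobase of coding length were not run, since no length was at hand for every member.

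Wild type and *msgn1* samples with the same replicate number deviated together with r = 0.16, -0.00 and 0.55. Those with unlike numbers had r from -0.51 to 0.47. Whether the numbers mark pairs is not given in the sources, and they were not taken as pairs. With the replicate block the counts were 35 lower and 0 higher for the *tbx16* line, 0 and 0 for the *msgn1* line, and 34 lower and 1 higher between the lines. In 7 genes (*hoxa1a*, *hoxc12b*, *hoxa13a*, *hoxb13a*, *hoxc13a*, *hoxc13b* and *hoxd13a*) all samples of at least 1 genotype had 20 counts or fewer, so their fold changes are imprecise, and 1 call, *hoxc12b*, rests on 5 counts in the *tbx16* line.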
